A study of Mus musculus with 12 samples.

Results

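The average effect of MBQ-167 on 4T1 mammary tumours was measured by setting the 6 RNA-seq libraries of tumours that received MBQ-167, alone or with paclitaxel, against the 6 libraries of tumours that did not. All 12 libraries of the series entered, and whether a tumour had received paclitaxel was a covariate. Tumours with and without MBQ-167 were thus compared at the same paclitaxel status, without pairing single tumours. The 4T1 line is a mouse mammary carcinoma line that grows in immunocompetent BALB/c mice. Here 300000 luciferase-tagged 4T1 cells had been placed in the mammary fat pad number 4. From day 14 to day 28 the mice received vehicle, MBQ-167 at 100 mg/kg 5 times a week, paclitaxel at 5 mg/kg 1 time a week, or both drugs at those doses, and each of these 4 groups had 3 libraries. All groups share the tumour line, the host strain and the time of killing, and vehicle was the only group with no drug. The labels call the libraries of each group biological replicates. They do not say whether each library was a separate mouse, nor which of the 2 rounds of tumour induction it came from. The p-values here thus measure the spread between libraries.

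MBQ-167 is a small-molecule inhibitor of the GTPases Rac and Cdc42. These are small, membrane-bound molecular switches. Exchange factors load them with GTP, GTPase-activating proteins turn them off, and the active form binds kinases such as the PAKs and the complexes that branch actin filaments, through which it drives lamellipodia, cell migration and gene expression. Paclitaxel stabilises microtubules and arrests dividing cells. Whole tumours hold carcinoma cells, leukocytes, fibroblasts and vessels, and in such bulk RNA fewer cells of a type and less RNA per cell cannot be told apart.

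The libraries held between 11540557 and 17001562 counts. The carcinoma marker Krt8 was present in every library, at 277 to 694 CPM (counts scaled to the library's size), and Epcam at 32.1 to 346 CPM. The 3 vehicle libraries lay apart on the first principal component (22.2% of the variance of log2 CPM), with scores of -53.6, -33.1 and -39.3, while paclitaxel tumours began at 5.86. The 6 libraries with MBQ-167 spanned -8.95 to 25.2, inside the range of -53.6 to 42.9 of the 6 without it. Vehicle 3 carried transcripts known from liver: 15 genes, among them Alb (albumin), Ahsg, Fga and Apoa1, had 10005 counts in all in vehicle 3 and 46 in the other 11 libraries together. These 15 genes were singled out after their values were seen, and the filter on low counts left them out of the tests. Vehicle 3 also had the highest neutrophil marker level, 2166 CPM summed over the list against 499 to 968 in the other 5 libraries without MBQ-167. Paclitaxel 2 had 160 CPM of B and plasma cell markers against 2.63 to 44.0 in the other 5. Measures of library make-up overlapped between the 6 with and the 6 without MBQ-167: the 3 abundant features Gm26917, Gm42418 and CT010467.1 took 30.4% ± 6.52 of counts with it and 30.1% ± 7.14 without it (SD, n = 6 each; exact two-sided permutation test within paclitaxel status, p = 0.94), and mitochondrial genes took 4.01% ± 1.25 and 4.92% ± 0.694 (p = 0.15, same test).

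No gene passed the test of the average MBQ-167 effect. Of 17767 genes tested, 0 (0%) had an adjusted p under 0.05 by edgeR's quasi-likelihood test with Benjamini-Hochberg adjustment, and the smallest adjusted p was 0.999. At an unadjusted p under 0.05 there were 721 genes (4.06%), 304 higher (1.71%) and 417 lower (2.35%) with MBQ-167. By limma voom the count was also 0, and DESeq2 called 1 gene, Ppp1r15a. The data were precise enough to bound the average effect on most genes, which is not the effect at either paclitaxel status alone. For 14649 genes (82.5%) the whole 95% interval of the average log2 fold change lay between -1 and 1, less than 2-fold either way. Of the 15869 genes whose mean was 1 CPM or more, this held for 14339 (90.4%), and for 9174 (57.8%) the interval lay between -0.5 and 0.5. The median effect over all genes was -0.00128 on the log2 scale.

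The average combines a pair of estimates that share no library, MBQ-167 against vehicle and combination against paclitaxel, and these did not resemble each other. Against vehicle, MBQ-167 alone gave 17 genes past the test (0.0957% of those tested; 3 higher, 0.0169%, and 14 lower, 0.0788%) and 2323 genes (13.1%) at an unadjusted p under 0.05. On top of paclitaxel, it gave 0 genes past the test in edgeR, 412 (2.32%) at an unadjusted p under 0.05, 0 in limma voom and 5 in DESeq2. The estimates had the same sign in 7791 genes (43.9%), and across genes their Spearman correlation was -0.142 and their Pearson correlation -0.112, as a description over genes that share the same libraries. The difference between the estimates was itself past the test for 11 genes (0.0619%; 1756, 9.88%, at an unadjusted p under 0.05), and 6 of these, Dusp1 and 5 genes of the immediate early list, are described further on. The count against vehicle was 42 without vehicle 2, 10 without vehicle 1, 5 without MBQ-167 2 and 4 without MBQ-167 3, and stayed within 1.5 times of 17 without any other library. The count for the difference was 18 without vehicle 2, 4 without vehicle 1, 5 without MBQ-167 1 or paclitaxel 1, and 2 without MBQ-167 2, MBQ-167 3, paclitaxel 2, paclitaxel 3 or combination 2. Libraries of MBQ-167 and vehicle did not overlap in 1520 genes that were higher (8.56%) and 1588 that were lower (8.94%) with MBQ-167, and those of combination and paclitaxel in 612 (3.44%) and 686 (3.86%). In 35 genes each way (0.197% each) neither pair of groups overlapped and the direction was shared. The counts for the average (0) and for MBQ-167 on top of paclitaxel (0) were 0 whichever library was left out.

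**Figure D1:**
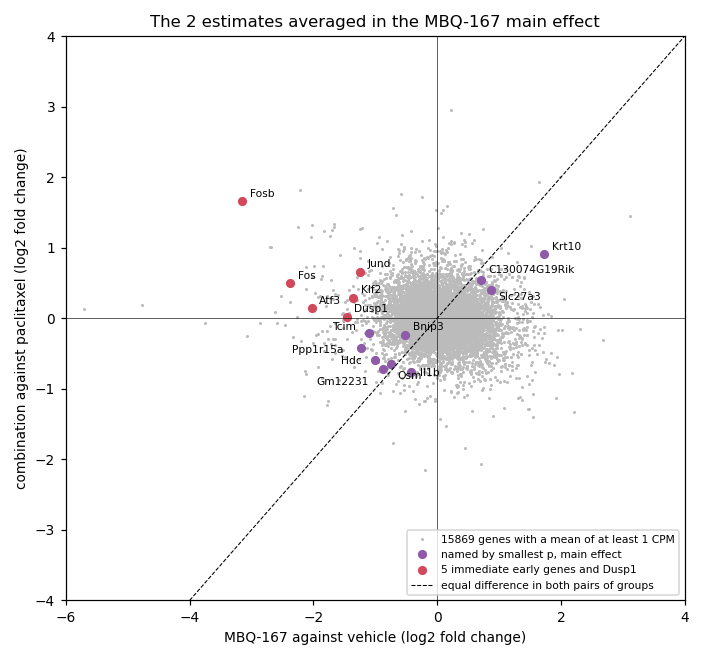
Log2 fold change of MBQ-167 against vehicle (horizontal) and of combination against paclitaxel (vertical), 1 grey point for each of the 15869 genes whose mean was 1 CPM or more. Genes with the smallest p in the average effect (purple) lie on the same side of zero on both axes, while Fos, Fosb, Atf3, Klf2, Jund and Dusp1 (red) lie to the left, between -3.16 and -1.24, at or above zero on the vertical axis.

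The 8 genes with the smallest p in each direction, taken from those whose mean was 1 CPM or more, were taken, and all but 1 higher gene are described next, as values, since none passed the test. All 16 had the same sign in both estimates, and in 15 of them the difference was larger against vehicle than on top of paclitaxel. For 5 of the 16, the 6 libraries with MBQ-167 did not overlap the 6 without it, 2 on the higher and 3 on the lower side. Over all genes tested, 11 (0.0619%) lay wholly higher and 17 (0.0957%) wholly lower. As the 16 were picked by p from this comparison, these counts describe the choice and test nothing.

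Ppp1r15a, whose protein directs dephosphorylation of eIF2α and so ends the integrated stress response, had the smallest p. Its gene lies on chromosome 7 at 45522916 to 45526268 (GRCm38, minus strand). Its level was 14.96, 19.9 and 16.4 CPM in the vehicle libraries, 7.45, 7.58 and 6.76 with MBQ-167, 8.15, 6.49 and 8.89 with paclitaxel, and 6.33, 6.004 and 5.28 with both drugs. The 3 vehicle libraries stood above all others, and the paclitaxel libraries overlapped those of MBQ-167 alone. The average effect was -0.84 ± 0.17 (log2 fold change ± SE; 95% interval -1.19 to -0.49; unadjusted p = 0.000127, adjusted p = 0.999 by edgeR). It was -1.23 ± 0.18 against vehicle (adjusted p = 0.0175 by edgeR) and -0.43 ± 0.18 on top of paclitaxel, where the groups did not overlap. The call against vehicle was lost without each MBQ-167 library in turn (adjusted p of 0.0732, 0.0976 and 0.131 by edgeR). For the average, DESeq2 gave -0.85 with an adjusted p of 0.0194.

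The 250 bases upstream of Ppp1r15a are shown with those of Atf3, Fos and Dusp1, stress and immediate early genes that were also highest in the vehicle libraries, and of Bnip3, a hypoxia-induced gene among the 16. Capitals mark TGACG, the core shared by sites of the CREB and ATF family, and ACGTG, a form of the core of sites for the hypoxia-inducible factors. Each was searched on both strands, and other forms of these sites were not searched. In no window did a match of TGACG overlap a match of ACGTG. Sequences are from RefSeq (GRCm38.p6), 5′ to 3′ on the strand of the gene, and end at the base before its start.
Ppp1r15a, chr7:45526269-45526518, minus strand: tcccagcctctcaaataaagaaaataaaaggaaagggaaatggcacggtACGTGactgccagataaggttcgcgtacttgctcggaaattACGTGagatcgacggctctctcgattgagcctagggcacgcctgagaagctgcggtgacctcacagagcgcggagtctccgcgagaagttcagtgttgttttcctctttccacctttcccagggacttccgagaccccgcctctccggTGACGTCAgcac
Atf3, chr1:191183334-191183583, minus strand: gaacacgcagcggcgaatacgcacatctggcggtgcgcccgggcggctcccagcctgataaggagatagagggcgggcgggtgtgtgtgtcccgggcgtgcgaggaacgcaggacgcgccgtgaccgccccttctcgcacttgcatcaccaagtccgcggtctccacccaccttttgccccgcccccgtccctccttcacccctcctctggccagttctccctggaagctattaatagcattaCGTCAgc
Fos, chr12:85473640-85473889, plus strand: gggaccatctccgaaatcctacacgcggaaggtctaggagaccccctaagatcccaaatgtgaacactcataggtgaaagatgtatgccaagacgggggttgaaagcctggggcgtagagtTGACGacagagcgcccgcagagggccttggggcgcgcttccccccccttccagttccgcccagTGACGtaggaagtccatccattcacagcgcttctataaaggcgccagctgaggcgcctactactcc
Dusp1, chr17:26508473-26508722, minus strand: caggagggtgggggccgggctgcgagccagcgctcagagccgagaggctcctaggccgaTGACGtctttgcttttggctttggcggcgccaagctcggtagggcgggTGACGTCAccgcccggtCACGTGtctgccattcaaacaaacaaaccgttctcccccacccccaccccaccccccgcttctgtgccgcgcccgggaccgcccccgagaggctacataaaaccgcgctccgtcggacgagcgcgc
Bnip3, chr7:138909507-138909756, minus strand: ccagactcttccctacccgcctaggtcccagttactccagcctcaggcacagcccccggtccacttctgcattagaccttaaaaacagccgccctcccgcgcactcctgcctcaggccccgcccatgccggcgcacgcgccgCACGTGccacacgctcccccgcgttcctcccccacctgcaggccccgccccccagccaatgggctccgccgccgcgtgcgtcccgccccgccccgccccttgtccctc
TGACG matched 2 times in Ppp1r15a, 1 time in Atf3, 2 times in Fos, 3 times in Dusp1 and 0 times in Bnip3, counting each strand, so that the palindrome TGACGTCA in Ppp1r15a and Dusp1 counts 2 times. ACGTG matched 2 times each in Ppp1r15a, Dusp1 and Bnip3, where CACGTG counts 2 times. Of 32851 promoter windows of the same length, 17.8% held TGACG and 16.6% held ACGTG on either strand, so the matches are common and are a description only.

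Of the 8 lower genes, 3 did not overlap between the 6 and the 6 libraries. Tcim, a small regulator of proliferation, was at 106, 98.3 and 142 CPM in vehicle, 50.8, 54.4 and 55.5 with MBQ-167, 65.8, 64.6 and 71.9 with paclitaxel, and 60.1, 50.2 and 63.9 with both. Its lowest value without MBQ-167, 64.6 CPM, lay just above its highest value with it, 63.9. The average effect was -0.66 ± 0.15, from -1.11 ± 0.14 against vehicle (adjusted p = 0.0047 by edgeR; 0.0509 without MBQ-167 2 and 0.0501 without MBQ-167 3) and -0.22 ± 0.14 on top of paclitaxel. Tcim shares its locus with the antisense gene Gm26714 on the opposite strand. The strand setting of the counting is not given in the sources used here, so their reads may not be separable.

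Bnip3, a mitochondrial protein that promotes mitophagy and is induced by hypoxia, was at 60.4, 65.1 and 67.4 CPM in vehicle and 56.4, 54.9 and 54.9 with paclitaxel. It was at 48.2, 51.9 and 34.5 CPM with MBQ-167 and 49.8, 49.2 and 42.2 with both drugs. Every library with MBQ-167 was below every library without it, with an average effect of -0.38 ± 0.10 (95% interval -0.60 to -0.16). The third, Gm12231, is annotated as a processed pseudogene on chromosome 11 and had 4.08 to 5.40 CPM without and 2.02 to 3.69 CPM with MBQ-167 (-0.80 ± 0.18). Reads of such a copy may come from its parent gene.

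**Figure D2:**
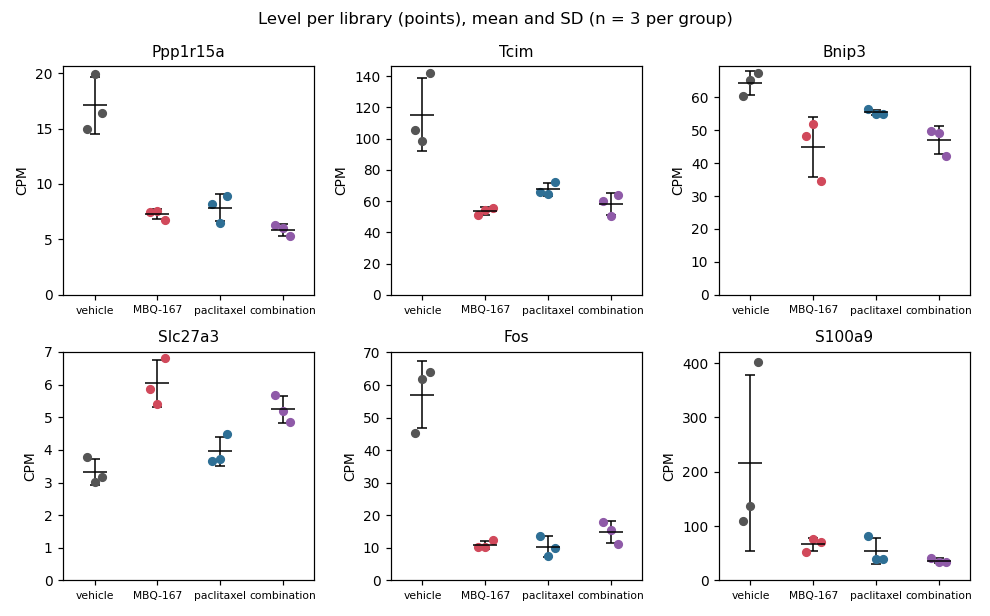
Level in CPM of 6 genes in each library (points, 3 per group), with the group mean (wide bar) and SD. Tcim, Bnip3 and Slc27a3 do not overlap between the groups with and without MBQ-167. For Fos and Ppp1r15a the vehicle libraries stand above the other 3 groups, and for S100a9 vehicle 3 is at 403 CPM.

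Other lower genes are known from leukocytes. Hdc makes histamine in mast cells, basophils and neutrophil precursors. Its level was 21.7, 29.8 and 32.5 CPM in vehicle, 9.31, 18.0 and 14.3 with MBQ-167, 14.9, 9.10 and 10.2 with paclitaxel, and 8.74, 7.43 and 6.86 with both (-0.81 ± 0.18). Vehicle was highest, and the paclitaxel libraries overlapped those of MBQ-167 alone. Osm, the cytokine oncostatin M, ran from 4.12 to 9.64 CPM without MBQ-167 (median 6.14) and from 3.26 to 4.87 CPM with it (median 3.91), an effect of -0.70 ± 0.18 that was close in both estimates (-0.74 against vehicle, -0.65 on top of paclitaxel). Il1b, the inflammatory cytokine interleukin-1β, ran from 40.2 to 79.2 CPM without and 30.5 to 59.0 CPM with MBQ-167 (-0.59 ± 0.16). It was the only gene of the 16 with the larger difference on top of paclitaxel, where its values were 75.4, 40.2 and 51.6 CPM without and 30.5, 33.9 and 34.8 CPM with MBQ-167 and did not overlap (-0.76 ± 0.22, unadjusted p = 0.00468, adjusted p = 1 by edgeR). Rpl36, a ribosomal protein gene, had the lowest log2 fold change of the 16 (-1.45 ± 0.35), at 9.03 to 61.9 CPM without and 8.31 to 12.1 CPM with MBQ-167, and ribosomal protein genes share reads with processed copies. Vehicle 3 was the highest library for Hdc and Rpl36; without it the effects were -0.73 and -1.24.

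Of the 8 higher genes, 2 did not overlap. Slc27a3, an acyl-CoA synthetase of the fatty acid transport family (chromosome 3, 90385239 to 90389938), was at 3.78, 3.00 and 3.17 CPM in vehicle, 5.87, 5.42 and 6.82 with MBQ-167, 3.67, 3.72 and 4.48 with paclitaxel, and 5.67, 5.20 and 4.86 with both. Its average effect was 0.63 ± 0.16 (95% interval 0.29 to 0.97; unadjusted p = 0.00136). C130074G19Rik, a protein-coding gene on chromosome 1, ran from 3.58 to 5.16 CPM without and 5.51 to 9.74 CPM with MBQ-167 (0.62 ± 0.18). Leaving out any 1 library kept the effect on Slc27a3 between 0.56 and 0.70.

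The other higher genes overlapped between the groups. Kif26b, a kinesin-like protein, ran from 27.4 to 43.9 CPM without and 37.4 to 54.3 CPM with MBQ-167 (0.43 ± 0.12), and Nat10, an RNA acetyltransferase, from 24.4 to 32.8 and 31.8 to 40.5 CPM (0.30 ± 0.09). BX649560.1, which overlaps Col20a1 on the same strand (0.60 ± 0.18), cannot be counted free of that gene. Krt10, a keratin of the outer epidermis, was at 6.51, 23.6 and 4.38 CPM with MBQ-167 and at 2.83 to 4.53 CPM in vehicle (1.31 ± 0.38). Other markers of keratinocytes were high in the same library: Krt1 was at 12.8 CPM in MBQ-167 2 and at 0 to 2.51 CPM in the other 11. Without that library the effect on Krt10 was 0.80.

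Mir31, the hairpin gene of miR-31 on chromosome 4 (88910557 to 88910662, GRCm38, minus strand), was at 0.529, 1.34 and 1.08 CPM in vehicle, 3.08, 2.31 and 2.07 with MBQ-167, 2.31, 1.35 and 1.90 with paclitaxel, and 2.60, 3.59 and 2.22 with both (0.93 ± 0.28; unadjusted p = 0.00455). Only paclitaxel 1 among the libraries without MBQ-167 reached the range of those with it. In breast cancer miR-31 is known as a suppressor of metastasis, and RhoA is among its known targets. The counts are of reads over the hairpin in libraries labelled as polyA RNA and do not measure the mature forms, which are shown to identify the gene, with the seed (bases 2 to 8) in capitals (RefSeq, GRCm38.p6).
mmu-miR-31-5p: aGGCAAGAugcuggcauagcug
mmu-miR-31-3p: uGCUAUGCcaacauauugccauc
Rhoa was at 187 to 278 CPM without and 180 to 242 CPM with MBQ-167. Its average effect was -0.19 ± 0.09 (95% interval -0.37 to -0.00, unadjusted p = 0.0484, adjusted p = 0.999 by edgeR). Gm37401 and Tcta overlap Rhoa on the opposite strand (8032 and 1486 counts in all, against 38840 for Rhoa), so their reads may not be separable. Whether the values of Mir31 and Rhoa are linked was not tested.

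The genes of the drug's targets had estimates near zero with narrow intervals. Rac1 was at 315, 264 and 316 CPM in vehicle, 266, 268 and 259 with MBQ-167, 229, 261 and 245 with paclitaxel, and 248, 273 and 219 with both, and its average effect was -0.08 ± 0.08 with a 95% interval of -0.26 to 0.10. Cdc42 was at 335, 340 and 277 CPM in vehicle, 319, 304 and 273 with MBQ-167, 256, 239 and 290 with paclitaxel, and 251, 288 and 240 with both (-0.05 ± 0.09; interval -0.24 to 0.14). In both genes the libraries with and without MBQ-167 overlapped, against vehicle and on top of paclitaxel. Daglb overlaps Rac1 on the opposite strand (17823 counts in all, against 47159 for Rac1), so their reads may not be separable. Rac2, the Rac of blood cells, had -0.24 ± 0.13, and the target kinases had -0.18 ± 0.11 for Pak1 and -0.10 ± 0.08 for Pak2.

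Over the 17 tested genes of Rac, Cdc42 and related small GTPases the median effect was -0.08, beside -0.00128 over all genes, with 6 genes above and 11 below zero; 0 passed the test, 1 (Rhoa) had an unadjusted p under 0.05, and 16 had intervals within -1 to 1. Rnd1, an atypical member without GTPase activity at 2.39 CPM, was the exception (-0.68). The regulators were flatter: the 22 exchange factors had a median of -0.00 and a range of -0.09 to 0.24, the upper end being Prex2, and all 22 had intervals within -1 to 1. The 14 inactivating proteins had a median of -0.03, with Srgap2 at 0.16 ± 0.08. Among the 25 effectors the median was -0.00 and 0 had an unadjusted p under 0.05, and the largest value, 0.77 ± 0.43, belonged to the polarity gene Pard6g, at 0.433 to 2.86 CPM. Downstream, the 23 genes of actin, the Arp2/3 complex and the WASP family had a median of -0.05, with the actin-severing cofilin gene Cfl1 at -0.19 ± 0.08, and the 22 targets of SRF and YAP had a median of -0.07, with the matricellular gene Ccn1 at -0.49 ± 0.17.

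**Figure D3:**
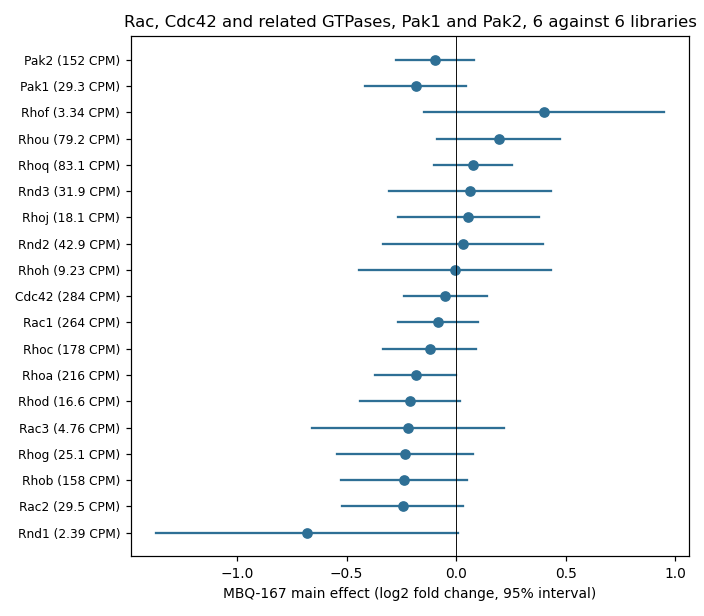
Average MBQ-167 effect (log2 fold change, point) with its 95% interval (line) for the 17 tested genes of Rac, Cdc42 and related small GTPases and for Pak1 and Pak2, with the mean level in CPM beside each name. Rac1 (-0.26 to 0.10) and Cdc42 (-0.24 to 0.14) have narrow intervals around zero, and Rnd1 and Rhof, the genes with few counts, the widest.

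Immediate early genes, which cells switch on within minutes of a stimulus and also of tissue handling, had a median of -0.31 with 24 of 25 below zero; 0 passed the test and 11 had an unadjusted p under 0.05, all lower, beside 2.35% of all genes. Fos, an AP-1 subunit, was at 45.2, 61.8 and 64.0 CPM in vehicle, 10.3, 10.2 and 12.4 with MBQ-167, 13.8, 7.52 and 9.94 with paclitaxel, and 17.9, 15.5 and 11.3 with both. All 9 libraries with a drug were below the 3 of vehicle, and the average effect of -0.97 ± 0.43 came from -2.38 ± 0.23 against vehicle and 0.50 ± 0.22 on top of paclitaxel. Fosb (-3.16 and 1.65), Atf3 (-2.03 and 0.14), Klf2 (-1.36 and 0.29) and Jund (-1.24 and 0.66) of the same list, and the phosphatase Dusp1 (-1.46 and 0.02) of the MAP kinase feedback list, had the same form, and for these 6 genes the difference between the estimates passed the test (adjusted p from 0.00522 to 0.0283, edgeR interaction term). With any 1 library left out, Fos and Fosb still passed that test. Atf3 missed it in 7, Dusp1 in 6 and Klf2 in 6 of the 12 such fits, with differences of at least 1.99, 1.37 and 1.49 and adjusted p of at most 0.103, 0.108 and 0.0949. Jund missed it in 8, with differences of at least 1.71 and an adjusted p of at most 0.103 (edgeR). Its reads may not be separable from those of the antisense gene Gm11175 on the opposite strand (18379 counts in all, against 37074 for Jund). Dusp1 has the same limit, as Ergic1 overlaps it on the opposite strand (14255 counts, against 7017 for Dusp1). Several other named genes also overlap a gene on the opposite strand.

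Some genes of the same list had estimates below zero in both comparisons. Btg2, an antiproliferative gene, had -0.78 against vehicle and -0.20 on top of paclitaxel (average -0.49 ± 0.14), Zfp36, which promotes decay of cytokine mRNAs, had -0.70 and -0.27 (-0.48 ± 0.14), and Ier3 and Egr1 had averages of -0.40 and -0.47. The 14 glucocorticoid-induced genes had a median of -0.29, from -0.82 against vehicle and 0.12 on top of paclitaxel. Per1, a clock gene that glucocorticoids also induce, was at 49.0 to 84.7 CPM in vehicle and 22.9 to 38.9 CPM in all other libraries (-0.58 ± 0.19). The 17 heat shock chaperones had a median of -0.19, with Dnajb1 at -0.29 ± 0.13. The 22 genes of protein folding stress, with Ppp1r15a, had a median of -0.10 and 1 member, Ppp1r15a, with an unadjusted p under 0.05.

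Genes of glycolysis and glucose uptake were all below zero: 22 of 22, with a median of -0.22, 0 past the test and 6 at an unadjusted p under 0.05, all lower. Over all genes 8952 of 17767 were below zero, and 2.35% were lower at that p. The median was -0.40 against vehicle and -0.04 on top of paclitaxel. Slc2a1, the main glucose transporter, was at 290, 304 and 316 CPM in vehicle, 174, 213 and 150 with MBQ-167, 181, 141 and 156 with paclitaxel, and 175, 172 and 138 with both, so that every treated library lay below vehicle and the average was -0.37 ± 0.14. Pfkl (-0.18), Ldha (-0.22) and Pkm (-0.18) followed that order. Aldoc, an aldolase, differed in that its estimates were equal, -0.38 ± 0.18 against each control (average -0.38 ± 0.12), from 16.2 to 31.8 CPM without and 15.6 to 22.8 CPM with MBQ-167. Slc2a3 had -0.67, with vehicle at 12.9, 18.3 and 32.1 CPM and every other library at 4.84 to 10.2.

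The 22 hypoxia-induced genes, most of them targets of HIF-1, had a median of -0.22, with 20 below zero, 0 past the test and 9 at an unadjusted p under 0.05, all lower, beside 2.35% of all genes. Their medians were -0.38 against vehicle and -0.11 on top of paclitaxel. After Bnip3, the member with the next smallest p was Bhlhe40, a transcriptional repressor, at 137 to 140 CPM in vehicle and 83.4 to 116 CPM in the rest (-0.35 ± 0.10). Adm, the vasodilator peptide adrenomedullin, was at 20.02, 29.3 and 42.8 CPM in vehicle and 9.80 to 18.0 CPM elsewhere (-0.80). These lists overlap in Slc2a1. Beside both lists, 8 of 10 markers of carcinoma epithelium were below zero against vehicle (median -0.78) and 10 of 10 above zero on top of paclitaxel (0.17), with a median of -0.30 in the average. The summed level of these markers was 2131, 998 and 3075 CPM in vehicle, 1054 to 1593 with MBQ-167, 1210 to 1325 with paclitaxel, and 993 to 1769 with both, so that vehicle spanned the other groups. Without vehicle 3 the median was 0.070, while that of the glycolysis list was -0.20 and that of the hypoxia list -0.21; the part of carcinoma content in those lists was not tested.

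Other programmes had medians nearer zero. The 22 genes of mitosis and cell division had a median of -0.04, 0 at an unadjusted p under 0.05 and all 22 intervals within -0.5 to 0.5; Kif20a, a mitotic kinesin, was the member with the smallest p (-0.21 ± 0.12), and Mki67, the proliferation marker, was at 181 to 252 CPM without and 178 to 248 CPM with MBQ-167 (-0.08 ± 0.10). The 22 genes of DNA replication had a median of -0.06, with Gins1 at 0.27 ± 0.15. The 37 nuclear genes of the respiratory chain had a median of -0.15, with 35 below zero and 3 lower at an unadjusted p under 0.05 (2.35% of all genes), Ndufv2 among them (-0.23 ± 0.09), and the 13 mitochondrial ones a median of -0.13, with mt-Co2 at -0.32 ± 0.23. The pentose phosphate pathway had a median of -0.13 over 10 genes, with G6pdx at -0.20 ± 0.11. Of the 37 lists of pathways, 35 had medians between -0.25 and 0.25 in the average, and 33 were below zero. Against vehicle 31 of these 37 medians were below zero and on top of paclitaxel 21, and over all 52 lists, cell type markers included, the medians of the estimates were of opposite sign in 30.

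**Figure D4:**
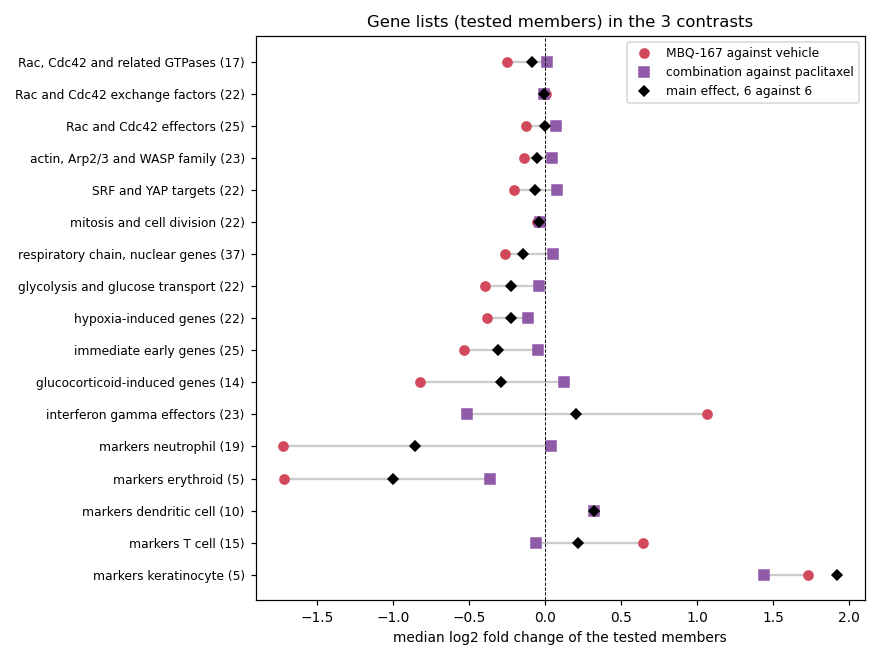
Median log2 fold change of the tested members of 17 lists (number of members in brackets) for MBQ-167 against vehicle (circles), combination against paclitaxel (squares) and their average over 6 against 6 libraries (diamonds); the dashed line is the median of all genes. Interferon gamma effectors (1.07 and -0.51) and glucocorticoid-induced genes (-0.82 and 0.12) have medians on opposite sides of zero, and dendritic cell markers (0.33 and 0.32) have nearly equal ones.

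Lists of immune genes also had estimates of opposite sign. The 23 interferon gamma effectors, which include chemokines and GTPases that restrict pathogens, had a median of 1.07 against vehicle and -0.51 on top of paclitaxel, and 0.20 in the average, with 0 at an unadjusted p under 0.05. Their summed level was 488 to 595 CPM in vehicle, 799 to 1139 with MBQ-167, 1082 to 1569 with paclitaxel, and 614 to 1349 with both. Nlrc5, the activator of MHC class I genes, had 0.90 against vehicle and -0.14 on top of paclitaxel, and Tap1, the peptide transporter of the class I pathway, 0.59 and -0.07. The 30 genes of the interferon response had 0.38 and -0.45, and Rsad2 among them had -0.60 on top of paclitaxel (unadjusted p = 0.0145, adjusted p = 1 by edgeR) and -0.02 against vehicle. Of the 30 interferon response genes, 1 that is not named here passed the test of the difference between the estimates, beside 0.0619% of all genes. The 31 cytokines and mediators had a median of -0.07, with 6 at an unadjusted p under 0.05, all lower (2.35% of all genes). Among them were Osm, Il1b, Cxcl1 (-0.64), a neutrophil chemokine, and Ptgs2 (-0.41), the inducible cyclooxygenase.

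Markers of several cell types had medians away from zero beside these values, and 0 of them passed the test of the average effect. Of 19 tested neutrophil markers 18 were below zero and 8 of them had an unadjusted p under 0.05, beside 2.35% of all genes, with a median of -0.85, from -1.72 against vehicle and 0.04 on top of paclitaxel. Their summed level was 872 to 2166 CPM in vehicle, 716 to 762 with MBQ-167, 499 to 620 with paclitaxel, and 539 to 582 with both. S100a9, a subunit of calprotectin, was at 110, 137 and 403 CPM in vehicle and 33.5 to 82.5 CPM elsewhere (-1.15 ± 0.32). Without vehicle 3 the median of the list was -0.34, the effect on S100a9 -0.72 and that on S100a8 -0.49 in place of -1.05, a move of over 1.5 times in each. Hdc, Osm, Il1b and Cxcl1 stood lower beside these markers, and the part of the neutrophil markers in those values was not tested. Without vehicle 3 Osm was at -0.75 and Il1b at -0.70.

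Erythroid markers, mostly haemoglobin, were below zero in 5 of 5 tested genes (-1.56 to -0.40), with a summed level of 258 to 265 CPM in vehicle, 44.6 to 108 with MBQ-167, 14.6 to 107 with paclitaxel, and 32.7 to 67.5 with both; Hba-a2, which shares near-identical sequence with Hba-a1, had -1.56 ± 0.54. Without paclitaxel 1 the median of these 5 was -0.63, in place of -1. Keratinocyte markers went the other way: 5 of 8 passed the filter on low counts, and these 5 had a median of 1.92. Of them, 4 were higher at an unadjusted p under 0.05, beside 1.71% of all genes. This is given as a description only, since a gene this low can pass the filter through the libraries where it is high. Their summed level was 3.48 to 8.31 CPM in vehicle, 6.88 to 44.3 with MBQ-167, 3.86 to 9.20 with paclitaxel, and 5.51 to 21.1 with both, and MBQ-167 2 alone was at 44.3. Without that library the median was 1.12. Krt5, a keratin of basal epithelium, had 1.80 ± 0.73 at 0 to 7.44 CPM, while Krt8, another keratin of the carcinoma list, had -0.35 ± 0.17. Of the 10 members of that list, 8 were below and 2 above zero in the average. The part of skin in the values of Krt10, Krt1 and Krt5 was not tested.

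Dendritic cell markers had nearly equal estimates, with a median of 0.33 against vehicle, 0.32 on top of paclitaxel and 0.32 in the average. All 10 members were above zero in the average, and 2 had an unadjusted p under 0.05, beside 1.71% of all genes on the higher side. Their summed level, which the abundant members set, was 276 to 339 CPM in vehicle, 266 to 306 with MBQ-167, 233 to 243 with paclitaxel, and 257 to 275 with both, so that its mean was lower with MBQ-167 than in vehicle (284 and 302 CPM) and higher with both drugs than with paclitaxel (264 and 238 CPM). Zbtb46, a transcription factor of classical dendritic cells, was at 6.48 to 11.7 CPM without and 9.98 to 14.7 CPM with MBQ-167 (0.34 ± 0.13), and Xcr1, the chemokine receptor of cross-presenting dendritic cells, at 0.0675 to 0.736 and 0.487 to 1.86 CPM (1.09). The groups overlapped for both genes. Leaving out 1 library at a time kept the median of the list between 0.19 and 0.37. T cell markers had a median of 0.22 from opposite estimates (0.64 and -0.06), with Cd8a at 0.62 ± 0.35. The 9 tested NK cell markers were split, 5 above and 4 below zero, with a median of 0.34 from estimates of 0.55 and -0.52, and Eomes was at 0.49 ± 0.28. In the average, macrophage markers (median -0.04, Arg1 at -0.37 ± 0.25) and fibroblast markers (0.10, Col1a1 at 0.23 ± 0.20) were near zero. So were endothelial markers (0.04, Plvap at 0.11 ± 0.09) and the collagens and matrix genes (0.05). The macrophage median was -0.28 against vehicle, with 14 of 14 below zero, and 0.17 on top of paclitaxel, with 11 of 14 above zero. That of the collagens and matrix genes was -0.11, with 14 of 19 below zero, and 0.21, with 19 of 19 above zero. Among these, Col6a1 had -0.91 against vehicle and 0.29 on top of paclitaxel. Timp3, an inhibitor of metalloproteases, had 0.29 ± 0.12.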

How the data were processed

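Gene counts of 12 tumour libraries were analysed. The authors deposited raw counts per gene, whole numbers without normalization; per the submitters' processing notes the tools were HISAT2, HTSeq and DESeq2 and the build GRCm38, with versions and the strand setting not given in the sources used here. Per the labels, polyA RNA was the template. The members and gene lists were chosen with earlier results of these data known. Ensembl IDs were named from GENCODE annotation of GRCm38 (45229 of 46078 IDs had a symbol); 15275 IDs had no count.

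The test was edgeR 4.0.16 (R 4.3.3) quasi-likelihood with TMM scaling, an additive model of paclitaxel and MBQ-167 over all 12 libraries, filterByExpr (minimum count 10; 17767 genes kept) and Benjamini-Hochberg adjustment over all genes tested, with a threshold of 0.05. A model of 4 groups gave the effect against vehicle, the effect on top of paclitaxel and their difference. SE is the log2 fold change over the root of F, and intervals are 95%. CPM uses TMM-scaled library sizes. Genes named are the 8 smallest p per direction with a mean of at least 1 CPM, the member of each list with the smallest p, and a fixed set of Rac pathway, immediate early and glycolysis genes; Slc2a3, Adm, Egr1, Ier3, Xcr1, Krt1, Cxcl1, Ptgs2, S100a8, Rnd1, Jund, Epcam, Alb, Ahsg, Fga and Apoa1 were named after their values were seen. Some results that this rule names are not reported here. Lists have no test; counts and medians stand beside those of all genes. Single values per library were compared by exact permutation (400 arrangements within paclitaxel status). Alternatives were DESeq2 1.42.0, limma 3.58.1 voom, other scaling, filters, models and gene sets, a correction for GC content and leaving out each library. The scripts were tested on simulated data. Deviations of same-numbered replicates of different groups correlated at -0.17 to 0.25, over 0.1 in 6 of 18 pairs, among them all 3 of vehicle and combination. As this did not hold for every pair of the groups compared, the numbers were not used as pairs.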

Additional observations from a re-analysis of the deposited data

Results flagged for a closer look

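Of 258 sets of 6 libraries checked (each named gene or list, with and without MBQ-167), 16 had a highest or lowest library far from the other 5; chance gives about 1 in 20 such sets. Vehicle 3 stood apart for S100a9 (403 CPM; the others 40.2 to 137), S100a8 (373 CPM; 22.2 to 103) and for summed markers of neutrophils (2166 CPM; 499 to 968) and skeletal muscle (37.9 CPM; 3.25 to 14.9), was highest in collagens and matrix (28949 CPM; 17063 to 21006) and lowest in antigen presentation (2530 CPM; 3599 to 3926). MBQ-167 2 stood apart for Krt10 (23.6 CPM; 4.15 to 10.7) and Krt1 (12.8 CPM; 0.670 to 2.51) and was lowest in ribosomal protein genes (4173 CPM; 4598 to 4770). Paclitaxel 2 stood apart in B and plasma cell markers (160 CPM; 2.63 to 44.0) and adipocyte markers (149 CPM; 12.02 to 59.8). Single flags fell on BX649560.1 in paclitaxel 1 (4.78 CPM), Rhoa in MBQ-167 1 (242 CPM), Ndufv2 in vehicle 1 (71.9 CPM), circadian clock genes in MBQ-167 3 (442 CPM, lowest) and the interferon response in combination 1 (749 CPM).

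For 6 named genes the MBQ-167 effect on top of paclitaxel differed from that against vehicle by edgeR's interaction term over all genes, on the log2 scale. The difference was 2.87 for Fos, with an adjusted p of 0.00522, and 4.81 for Fosb, with 0.00531. It was 2.17 for Atf3, 1.48 for Dusp1, 1.65 for Klf2 and 1.90 for Jund, each with 0.0283. All 6 were lower with MBQ-167 than with vehicle in 3 of 3 libraries, as were 1588 of all genes tested (8.94%). That difference is part of the interaction term that picked these 6 genes, so the separation describes the choice and tests nothing.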

How the results depend on the processing

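The count of genes past the test of the average effect stayed at 0 with limma voom, size factors of the RLE kind, a filter of 1 CPM in 6 libraries, no paclitaxel term, the average from the 4-group model, the GC correction, protein-coding genes only, removal of the 3 abundant features and each library left out. It was 1 with DESeq2, 21 with no filter on low counts (1 higher, 20 lower, 15 of them the liver genes of vehicle 3), 5 in the libraries without paclitaxel fitted alone (Fos, Fosb, Atf3, Dusp1 and Hspa1b) and 0 in those with paclitaxel. Without a filter Ppp1r15a, Hdc, Tcim, Rpl36, S100a9 and Krt10 passed; the cause was not tested. The count against vehicle (17) was 320 with DESeq2, 392 with no filter, 18 with the GC correction and 4 to 42 with a library left out. The count on top of paclitaxel (0) was 5 with DESeq2 and 7 with no filter. The count for the difference (11) was 148 with DESeq2, 197 with no filter, 10 with the GC correction and 2 to 18 with a library left out. Fitted on the libraries with paclitaxel alone, these named genes turned sign, as the second estimate in the report shows: Fos 0.50, Fosb 1.65, Atf3 0.14, Dusp1 0.028, Klf2 0.29, Jund 0.66, Rac1 0.014, Slc2a1 0.028, Pfkl 0.14, Pkm 0.0039, Krt8 0.10, Epcam 0.17, Col6a1 0.30, Cd8a -0.055, Nlrc5 -0.14 and Tap1 -0.073. With a library left out Epcam ranged from -0.60 to 0.061, the latter without vehicle 3. With the replicate number as a block, the counts were 0 for the average, 23 against vehicle, 0 on top of paclitaxel and 13 for the difference; 5 of 12 libraries correlated best with their own number, so the block pairs nothing known. Medians of lists moved by more than the spread between libraries in 45 list and setting combinations and by less in 1255. Genes under 1 CPM, such as most keratinocyte markers, rest on few counts, and intervals cover the spread of these libraries only.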
